A study of Homo sapiens with 12 samples.

Results

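The genes described here are 39 nucleolar and rRNA-processing genes, most of them known targets of the MYC family of transcription factors. They were listed by name from knowledge of ribosome assembly, with earlier results of these data known. All 39 were found among the 19923 protein-coding genes of the count files, and all 39 had enough reads to be tested in each of the fits. By role they are 2 subunits of RNA polymerase I, 8 proteins of small nucleolar ribonucleoproteins (snoRNPs), 10 assembly factors of the small ribosomal subunit, 15 of the large subunit, and 4 nucleolar proteins with several functions.

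Ribosomes are built in the nucleolus. RNA polymerase I transcribes one long precursor rRNA, snoRNPs guide its cleavage and its chemical modification, and assembly factors fold and trim it into the small and large subunits together with ribosomal proteins. MYC and MYCN raise the transcription of many of these genes by binding E-box sequences near their start sites, and growing tumor cells with amplified MYCN depend on a high output of ribosomes.

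RNA was sequenced from SK-N-BE2 and NGP, human neuroblastoma lines that the labels give as MYCN-amplified and of wild-type genotype. Each line was kept for 6 days with STM2457, an inhibitor of the catalytic activity of METTL3, the enzyme that writes N6-methyladenosine on mRNA, or with its solvent DMSO. The dose was 12 µM in SK-N-BE2 and 1 µM in NGP. There were 3 replicates in each of the 4 groups, 12 libraries in all. Nothing in the labels says that replicates came from separate cultures, so p-values measure the spread between these libraries, which may be technical. Per the file headers, the aligned reads of each line lay in 1 folder, taken here as its sequencing run, and the lines shared none. Line, dose and sequencing run changed together and cannot be told apart in any comparison of the lines.

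The libraries held 47242379 to 58159937 counted reads. Neuroblastoma genes such as MYCN, HAND2, GATA3 and PHOX2A were present in both lines, while TH was near 0 in NGP (0.514 and 0.844 CPM, read counts scaled to a common library size, in DMSO and STM2457). Of the 6 markers of other cells, COL1A2 reached at most 0.0588 CPM in a group, PTPRC and PECAM1 were at 0 in NGP and at most at 1.68 CPM in SK-N-BE2, and CD68 lay from 3.86 to 6.25 CPM. LUM and DCN moved with the treatment. In DMSO and STM2457, LUM had 20.1 and 34.6 CPM in SK-N-BE2, 5.89 and 21.8 CPM in NGP, and DCN had 44.9 and 97.8 CPM in SK-N-BE2, 0.158 and 1.59 CPM in NGP. The part of these markers in the results was not tested. METTL3 mRNA, which does not measure the inhibited activity, rose by 0.52 ± 0.08 and 0.92 ± 0.11 in the lines (log2, SE, n = 3, SK-N-BE2 before NGP, edgeR adjusted p = 0.000106 and 0.000300). One library stood apart, over all genes as well as for these. The first DMSO replicate of NGP had the lowest mean correlation with its group of the 12 libraries (0.9796, over all tested genes). It held the highest of the 3 DMSO values for 29 of the 39 genes and the lowest for 8. Its median deviation from the mean of the NGP DMSO libraries was 0.20 on the log2 scale over the 39 genes. It was 0.10 over the other ribosome biogenesis genes described below and 0.02 over all tested genes. Results in NGP are therefore also given without this library.

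Promoter sequence was looked at because the genes are known as MYC-family targets. RefSeq promoter windows (GRCh38.p14, 250 bases before to 50 bases after a start) matched 33 of the 39 genes by symbol. The canonical E-box CACGTG, which reads the same on both strands, occurred in 14 of these 33 windows (42.4%), in 1775 of the 21271 windows of genes in the count files (8.34%) and in 2548 of all 35116 windows (7.26%). The related letters CACGCG, searched on both strands, occurred in 6 of the 33 windows (18.2%), against 14.3% of the windows of genes in the count files and 11.4% of all windows. Of the 14 CACGTG matches, 13 began between 16 bases before and 35 bases after the start, and the one in EBNA1BP2 began 237 bases before it. A match describes letters in a window and does not show a bound site.

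The genes with CACGTG were FBL, RRP9, UTP4, UTP20, WDR43, NOP14, BYSL, NAT10, PES1, NOP2, GNL2, MRTO4, EBNA1BP2 and MYBBP1A. They include genes that rose, fell or did not pass the test. In SK-N-BE2, windows with CACGTG belonged to 3 of 7 genes that rose, 0 of 5 that fell and 11 of 21 that were not called. In NGP the counts were 3 of 7, 5 of 8 and 6 of 18. The stretches below run from 115 bases before the start through the first 5 bases after it, 5′ to 3′ on the gene's strand, with CACGTG in capitals. UTP20 rose in both lines, UTP4 and RRP9 fell in NGP, and all 3 have the match within 16 bases of the start. NOB1, which fell in both lines, and NPM1, which moved in opposite directions, have none in their windows.
UTP20, chr12:101279990-101280109, plus strand: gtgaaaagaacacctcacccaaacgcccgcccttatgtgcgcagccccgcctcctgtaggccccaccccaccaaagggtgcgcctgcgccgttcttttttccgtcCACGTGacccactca
UTP4, chr16:69132534-69132653, plus strand: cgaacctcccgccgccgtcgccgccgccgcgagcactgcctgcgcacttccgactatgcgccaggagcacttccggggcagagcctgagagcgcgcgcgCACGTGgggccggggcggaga
RRP9, chr3:51941900-51942019, minus strand: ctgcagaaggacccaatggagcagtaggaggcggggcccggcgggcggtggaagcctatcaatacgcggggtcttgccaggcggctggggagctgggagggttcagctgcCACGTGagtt
NOB1, chr16:69754922-69755041, minus strand: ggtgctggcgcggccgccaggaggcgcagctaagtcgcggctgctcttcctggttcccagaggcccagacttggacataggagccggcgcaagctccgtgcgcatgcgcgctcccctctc
NPM1, chr5:171387001-171387120, plus strand: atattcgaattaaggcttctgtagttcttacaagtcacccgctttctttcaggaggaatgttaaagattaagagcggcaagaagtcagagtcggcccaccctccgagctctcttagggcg
The RefSeq start used for UTP4 lies 1358 bases from the start of that gene in the count files.

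Ribosome biogenesis genes as a group did not move one way with STM2457. A gene is called when its edgeR quasi-likelihood test gave a Benjamini-Hochberg adjusted p under 0.05 over all genes tested. In SK-N-BE2, 13 of the 39 genes were called, 7 higher and 6 lower, which is 33.3% against a background of 54.7% of all 14013 genes tested (26.9% higher, 27.8% lower). In NGP, 17 were called, 9 higher and 8 lower, 43.6% against 41.7% of 13610 genes (19.4% higher, 22.2% lower). The share in SK-N-BE2 lay below the background and that in NGP near it. With upper-quartile scaling the split in SK-N-BE2 was 3 higher and 8 lower. Such scaling shifts the log2 changes of all genes together. This split, and those under that scaling below, therefore do not describe the listed genes alone.

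Changes were small. The median log2 fold change of the 39 genes was 0.03 for SK-N-BE2 cells and -0.10 for NGP cells, against -0.02 and -0.03 over all genes. Single genes spanned -0.61 to 0.95 (SK-N-BE2) and -0.61 to 0.80 (NGP) on that scale. No gene of the 39 passed an absolute log2 fold change of 1 in either line, while 1920 genes of SK-N-BE2 and 2117 of NGP did. The median absolute log2 fold change was 0.15 and 0.29 for the 39 genes and 0.37 and 0.39 for all genes.

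**Figure D1:**
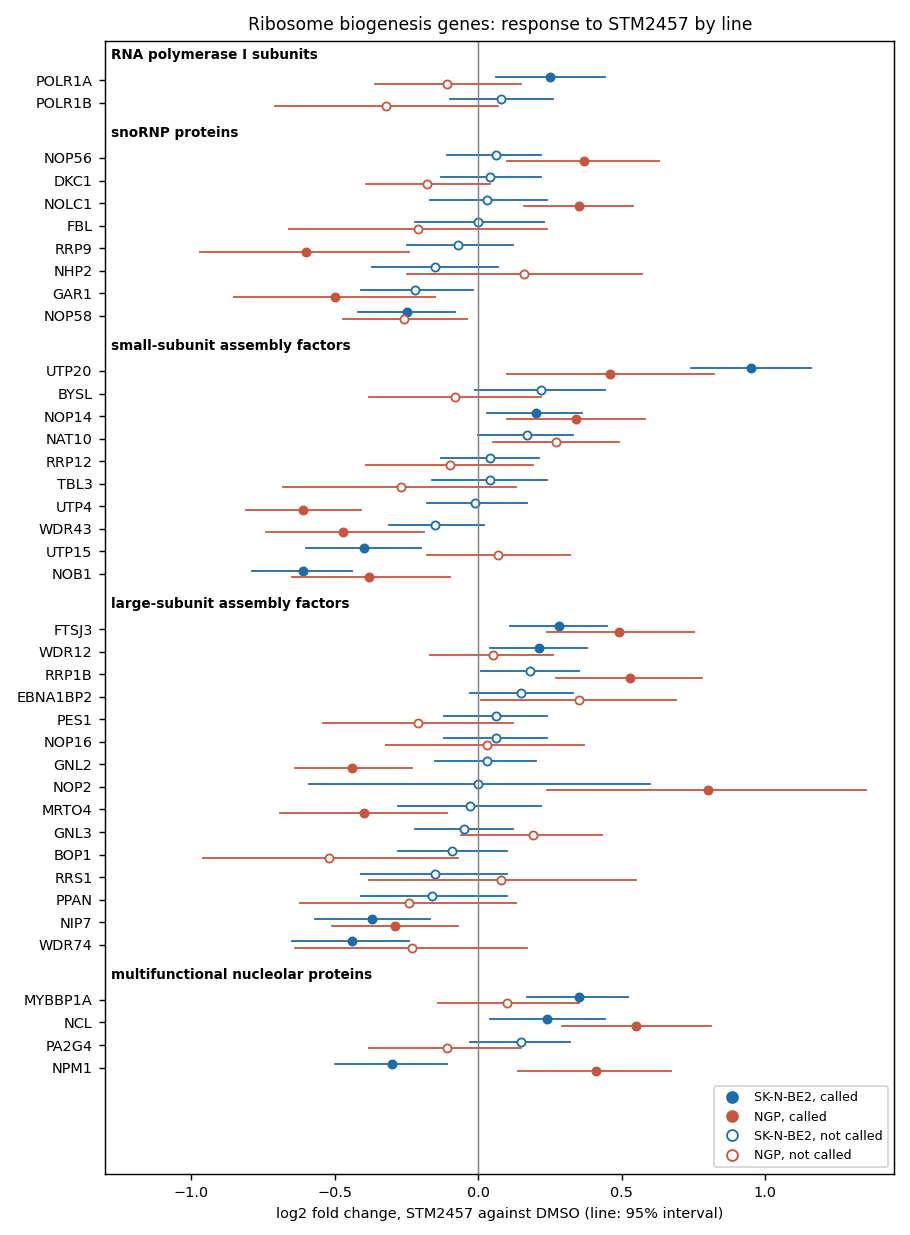
Log2 fold change (x axis) of each of the 39 genes with STM2457 against DMSO, grouped by role, in SK-N-BE2 (blue) and NGP (red); lines are 95% intervals and filled points are called genes. Points lie on both sides of 0 within each assembly-factor group, from -0.61 to 0.95.

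The separation of the libraries gave a like picture. All 3 STM2457 libraries lay beyond all 3 DMSO libraries for 19 of the 39 genes in SK-N-BE2 (12 above, 7 below; 48.7%, against 62.2% of all genes tested) and for 20 in NGP (10 above, 10 below; 51.3%, against 54.7%). All called genes of the list were among them in both lines.

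Without the first DMSO replicate of NGP, 24 of the 39 genes were called in NGP, 13 higher and 11 lower (61.5%, against 57.3% of all genes in that fit). All 17 genes called with all libraries remained called with the same sign. The biological coefficient of variation in NGP, which edgeR estimates from the spread between replicates, was 0.155 with that library, 0.0944 without it, and 0.107 in SK-N-BE2. The number of called genes in NGP was 7, 5, 7 and 6 when the third DMSO replicate or the first, the second or the third STM2457 replicate was left out, fits in which 31.6%, 27.7%, 32.9% and 28.4% of all genes were called. In SK-N-BE2 it was 7 and 8 without the first or the third STM2457 replicate, where 46.7% and 45.7% of all genes were called. Calls gained there by leaving out 1 library were GAR1, NHP2 and RRP1B without the first DMSO replicate, and BYSL and EBNA1BP2 without the second (edgeR adjusted p from 0.00182 to 0.0347). Upper-quartile scaling added GAR1 and WDR43 (edgeR adjusted p = 0.0247 and 0.0386).

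**Figure D2:**
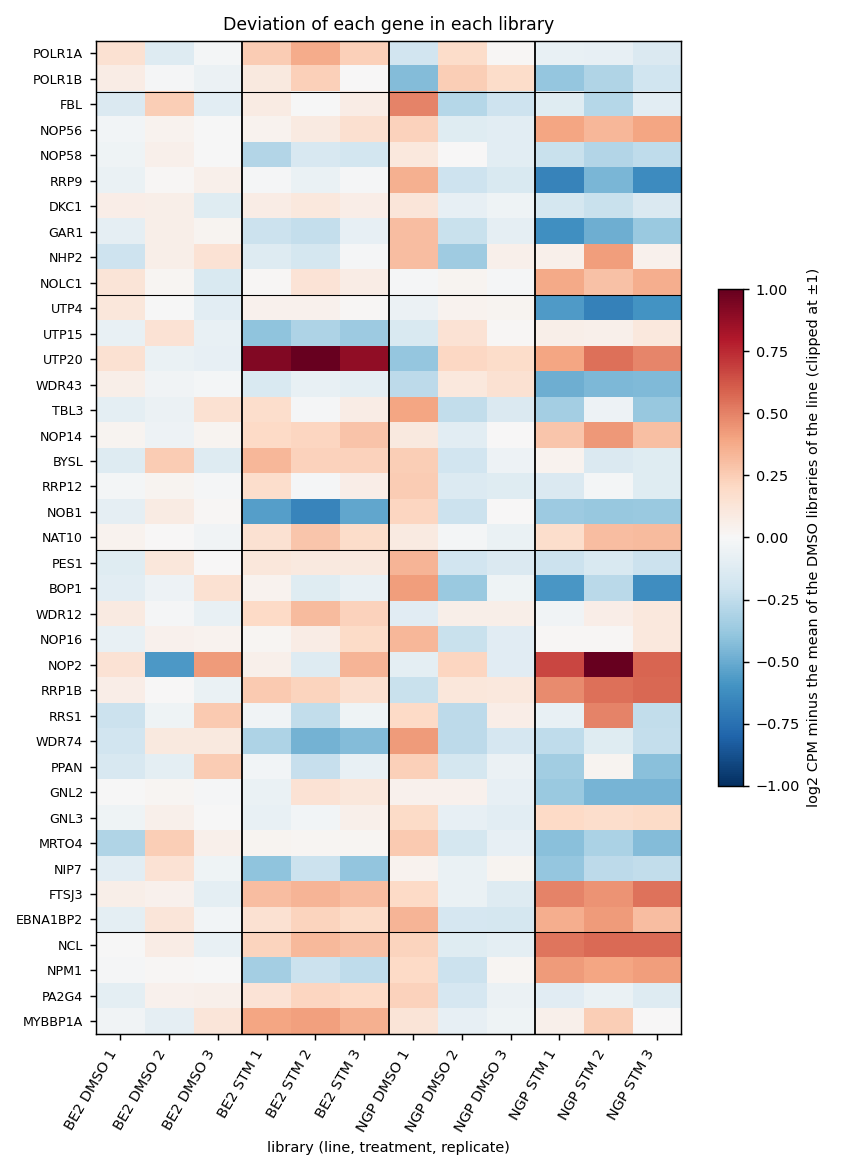
Deviation of each of the 39 genes (rows, ordered by role) in each library (columns), as log2 CPM minus the mean log2 CPM of the DMSO libraries of the same line, on a color scale clipped at ±1. The NGP DMSO 1 column is red for most genes (median 0.20), and UTP20 is the darkest row of the SK-N-BE2 STM2457 libraries.

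RNA polymerase I is represented by its largest subunits, POLR1A and POLR1B, which form the catalytic core. POLR1A was at 125, 103 and 111 CPM in the DMSO libraries of SK-N-BE2 and at 134, 146 and 133 CPM with STM2457. The STM2457 libraries were all above the DMSO libraries, and POLR1A rose by 0.25 ± 0.09 (log2, SE, n = 3, edgeR adjusted p = 0.0299). The POLR1A call was lost in 5 of 6 fits that left out 1 library, all but the one without the first DMSO replicate, with an adjusted p of up to 0.135, and under upper-quartile scaling (edgeR adjusted p = 0.0768). In NGP, POLR1A had 166, 216 and 191 CPM in DMSO and 180, 179 and 172 CPM in STM2457, with overlapping groups. POLR1B was called in neither line (log2 change 0.08 and -0.32, edgeR adjusted p = 0.428 and 0.170). Without the first DMSO replicate of NGP both fell there, POLR1A by 0.20 and POLR1B by 0.50 (log2, edgeR adjusted p = 0.0314 and 0.000273). Their responses then differed between the lines by 0.44 and 0.58 (edgeR adjusted p = 0.00739 and 0.000889).

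Among the 8 snoRNP genes, 1 fell in SK-N-BE2, and 2 rose and 2 fell in NGP. Box C/D particles add methyl groups to rRNA riboses with FBL as the enzyme and NOP56 and NOP58 as scaffold, and box H/ACA particles make pseudouridine with DKC1 as the enzyme and GAR1 and NHP2 as partners. RRP9 belongs to the C/D particle needed for the first cleavages of the precursor rRNA, and NOLC1 is a chaperone of snoRNPs. The enzymes FBL and DKC1 were called in neither line, with log2 changes of 0.00 and 0.04 for SK-N-BE2, -0.21 and -0.18 for NGP. The control libraries of FBL spread widely in NGP, at 730, 424 and 448 CPM, and its STM2457 libraries had 476, 424 and 480 CPM.

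RRP9 had 31.8, 33.6 and 34.5 CPM in DMSO and 33.1, 31.7 and 33.1 CPM in STM2457 in SK-N-BE2. In NGP it had 79.0, 53.7 and 55.8 CPM in DMSO and 38.9, 45.1 and 40.0 CPM in STM2457. The groups overlapped in SK-N-BE2 and were apart in NGP, where the highest control was the first replicate. RRP9 fell by 0.60 on the log2 scale in NGP (SE 0.16, n = 3, edgeR adjusted p = 0.0165), while SK-N-BE2 gave -0.07 ± 0.09. Without the first DMSO replicate the NGP change of RRP9 was -0.40 (edgeR adjusted p = 0.00258). The RRP9 call in NGP was lost without the first or the third STM2457 replicate (edgeR adjusted p up to 0.0722).

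GAR1 had 55.6, 38.4 and 42.1 CPM in the DMSO libraries of NGP and 29.3, 32.0 and 34.6 CPM in the STM2457 libraries. All treated libraries were below the controls, and GAR1 fell by 0.50 (log2, SE 0.15, n = 3, edgeR adjusted p = 0.0286). In SK-N-BE2 the GAR1 change was -0.22 ± 0.09 (edgeR adjusted p = 0.0624). Without the first DMSO replicate the GAR1 change in NGP was -0.33 (edgeR adjusted p = 0.0120). The GAR1 call in NGP was lost without the third DMSO replicate or any one STM2457 replicate (edgeR adjusted p up to 0.115). It was also lost with a block for replicate number (edgeR adjusted p = 0.0501). NOP56 and NOLC1 rose in NGP by 0.37 and 0.35 (edgeR adjusted p = 0.0326 and 0.0106), against 0.06 and 0.03 in SK-N-BE2, and NOP58 fell in SK-N-BE2 by 0.25 (edgeR adjusted p = 0.0167), with -0.26 in NGP (edgeR adjusted p = 0.0548, 0.0198 without the first DMSO replicate and 0.0277 in the joint fit). Each of these 3 calls was lost in some fits that left out 1 library: NOP56 without any library of NGP but the first DMSO replicate (edgeR adjusted p up to 0.124), NOLC1 and NOP58 without the first or the third STM2457 replicate (up to 0.0666 and 0.102). NHP2 was called in neither line (-0.15 for SK-N-BE2, 0.16 for NGP).

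Small-subunit assembly factors included the gene with the largest rise in SK-N-BE2, UTP20, and those with the largest falls, NOB1 in SK-N-BE2 and UTP4 in NGP. Of these 10 genes, 2 rose and 2 fell in SK-N-BE2, and 2 rose and 3 fell in NGP. UTP20 is a very large scaffold protein of the small-subunit processome, the particle in which the small-subunit rRNA is first folded and cut. Its gene lies on chromosome 12 (101280105 to 101386618, GRCh38).

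In SK-N-BE2, UTP20 had 36.3, 31.1 and 30.8 CPM in DMSO and 62.1, 71.7 and 60.5 CPM in STM2457. NGP had 61.5, 93.0 and 91.3 CPM in DMSO and 106, 118 and 113 CPM in STM2457. Treated libraries were above controls in both lines without overlap. UTP20 rose by 0.95 ± 0.10 in SK-N-BE2 (log2, SE, n = 3, edgeR adjusted p = 3.85e-06) and by 0.46 ± 0.16 in NGP (edgeR adjusted p = 0.0443), a difference of 0.50 ± 0.20 that was not called (edgeR adjusted p = 0.0685). The SK-N-BE2 call held in every fit that left out 1 library. The NGP call of UTP20 was lost without the third DMSO replicate or any one STM2457 replicate (edgeR adjusted p up to 0.112). Without the first DMSO replicate of NGP, UTP20 rose there by 0.29 (edgeR adjusted p = 0.00480) and the difference between the lines was 0.65 (edgeR adjusted p = 0.000690).

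NOB1 is the endonuclease that makes the last cut of the small-subunit rRNA in the cytoplasm. Its levels in SK-N-BE2 were 86.7, 97.5 and 92.7 CPM in DMSO and 63.1, 58.2 and 64.2 CPM in STM2457. In NGP they were 106, 78.7 and 91.5 CPM and 71.0, 70.1 and 70.7 CPM. STM2457 libraries were below all controls in both lines. NOB1 fell by 0.61 on the log2 scale in SK-N-BE2 (SE 0.08, n = 3, edgeR adjusted p = 3.74e-05) and by 0.38 in NGP (SE 0.12, edgeR adjusted p = 0.0341). Of its exon length, 20.4% is shared with NQO1-DT on the other strand, and the counting used no strand option, so reads of the pair cannot be told apart. The NOB1 call in NGP was lost without the third DMSO replicate or any one STM2457 replicate (edgeR adjusted p up to 0.117). A replicate block lost it as well (edgeR adjusted p = 0.0595). Without the first DMSO replicate the NOB1 responses differed between the lines by -0.35 (edgeR adjusted p = 0.0205).

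UTP4, UTP15 and WDR43 are subunits of 1 complex, UtpA, which binds the start of the precursor rRNA and is tied to its transcription. UTP4 had 85.0, 78.4 and 73.2 CPM in DMSO and 81.3, 80.9 and 79.2 CPM in STM2457 in SK-N-BE2. In NGP it had 157, 167 and 166 CPM in DMSO and 110, 102 and 108 CPM in STM2457. The groups overlapped in SK-N-BE2 and lay far apart in NGP, and the first DMSO replicate was no outlier for this gene. UTP4 fell in NGP by 0.61 (log2, SE 0.09, n = 3, edgeR adjusted p = 0.000954), while SK-N-BE2 gave -0.01 ± 0.08.

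UTP15 showed the reverse order of the lines. It had 46.7, 54.4 and 46.7 CPM in DMSO and 37.1, 39.6 and 38.2 CPM in STM2457 in SK-N-BE2, where it fell by 0.40 (log2, SE 0.09, n = 3, edgeR adjusted p = 0.00215). The NGP libraries had 35.7, 43.9 and 40.0 CPM in DMSO and 41.4, 41.1 and 42.8 CPM in STM2457, with overlapping groups and a change of 0.07 ± 0.11. WDR43 had 248, 320 and 329 CPM in DMSO and 211, 217 and 219 CPM in STM2457 in NGP, with all treated libraries below the controls. WDR43 fell there by 0.47 (log2, SE 0.12, n = 3, edgeR adjusted p = 0.0141), against -0.15 in SK-N-BE2. This WDR43 call was lost without the third DMSO replicate or any one STM2457 replicate of NGP (edgeR adjusted p up to 0.0650).

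NOP14, which the small-subunit processome needs for its cleavages, was slightly higher with STM2457 in both lines. Its values were 90.3, 85.5 and 90.3 CPM in DMSO and 102, 103 and 108 CPM in STM2457 in SK-N-BE2. NGP had 51.6, 44.9 and 48.4 CPM in DMSO and 58.6, 65.0 and 59.4 CPM in STM2457. The groups did not overlap in either line, and NOP14 rose by 0.20 ± 0.08 and 0.34 ± 0.10 (log2, SE, n = 3, edgeR adjusted p = 0.0425 and 0.0286). Both NOP14 calls were lost in 5 of 6 fits without 1 library, all but those without the first DMSO replicate of the line (edgeR adjusted p up to 0.170 and 0.0864). The SK-N-BE2 call was also lost under upper-quartile scaling (0.118) and with no filter on low counts (0.0567). With a replicate block both NOP14 calls were lost (edgeR adjusted p = 0.0695 and 0.0767). NOP14-AS1 on the other strand shares 20.7% of its exon length. NAT10, the rRNA cytidine acetyltransferase, gave 0.17 and 0.27 (edgeR adjusted p = 0.0818 and 0.0516) and was called in NGP without the first DMSO replicate (0.32, edgeR adjusted p = 0.00356), with DESeq2 size factors within edgeR (0.0414), with counts halved (0.0477), in the joint fit (0.00852) and by DESeq2 (0.0175). BYSL, TBL3 and RRP12 were called in neither line, SK-N-BE2 giving log2 changes of 0.04 to 0.22 and NGP -0.27 to -0.08.

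**Figure D3:**
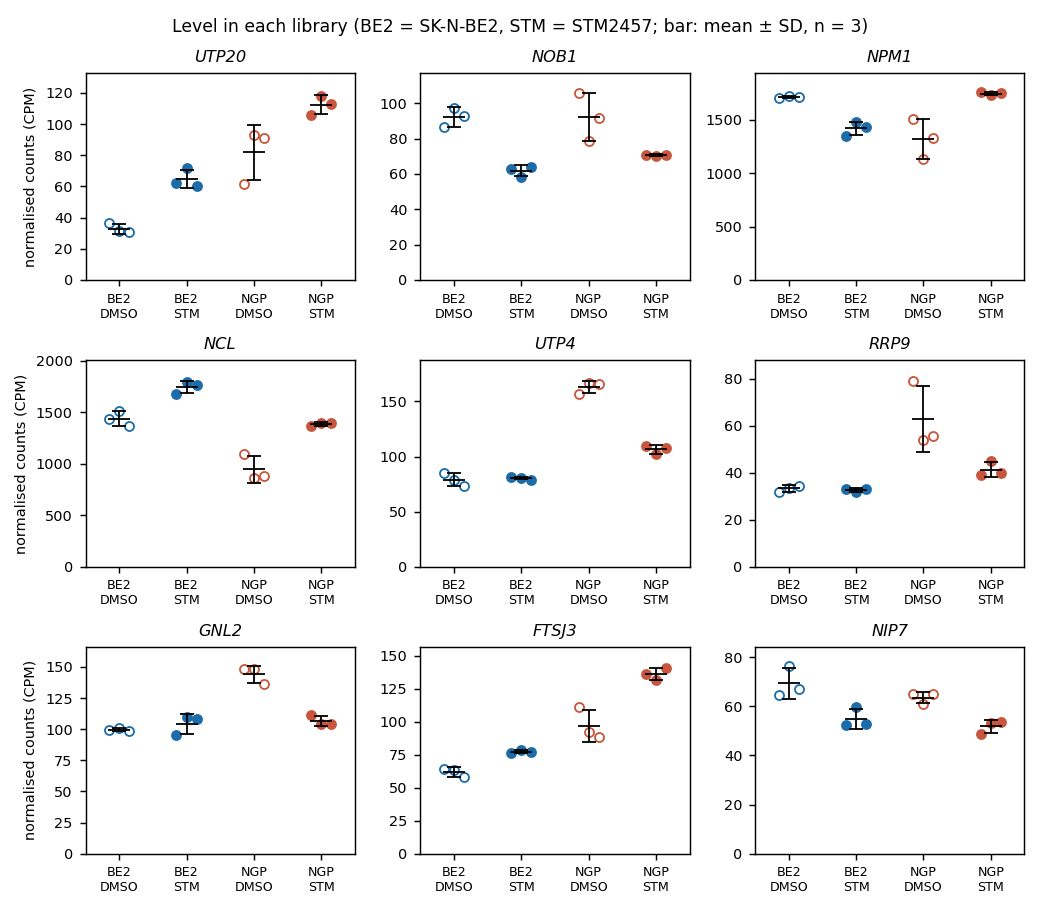
Level in each library (y axis, CPM on the TMM scale, from 0) of 9 of the genes, by line and treatment, with the mean ± SD of 3 libraries. UTP4, RRP9 and GNL2 drop with STM2457 in NGP but not in SK-N-BE2, and NPM1 moves down in SK-N-BE2 and up in NGP.

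The 15 large-subunit factors split evenly, with 2 higher and 2 lower in SK-N-BE2 and 3 higher and 3 lower in NGP. FTSJ3, a methyltransferase that acts in precursor processing, rose in both lines, and NIP7, also a processing factor, fell in both. FTSJ3 had 64.3, 63.7 and 57.9 CPM in DMSO and 76.7, 78.5 and 76.8 CPM in STM2457 in SK-N-BE2. NGP had 111, 92.2 and 88.3 CPM in DMSO and 136, 132 and 141 CPM in STM2457. Groups were apart in both lines, and FTSJ3 rose by 0.28 ± 0.08 and 0.49 ± 0.11 (log2, SE, n = 3, edgeR adjusted p = 0.00812 and 0.00792). These calls held in every fit without 1 library and under each other setting tried. PSMC5 on the other strand shares 12.6% of the FTSJ3 exon length.

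NIP7 had 64.4, 76.5 and 67.2 CPM in DMSO and 52.4, 59.6 and 52.7 CPM in STM2457 in SK-N-BE2. In NGP it had 65.0, 60.8 and 64.8 CPM in DMSO and 48.7, 53.0 and 53.6 CPM in STM2457. All treated libraries were below the controls, and NIP7 fell by 0.37 and by 0.29 (log2, SE 0.09 and 0.10, n = 3, edgeR adjusted p = 0.00405 and 0.0384). The NIP7 call in NGP was lost without the third DMSO replicate or any one STM2457 replicate (edgeR adjusted p up to 0.181). It was also lost with no filter on low counts (0.0528) and with a replicate block (0.101). COG8 on the other strand shares 20.2% of its exon length.

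WDR74, which helps to release early large-subunit particles, was called in SK-N-BE2 and not in NGP. It had 85.1, 104 and 104 CPM in DMSO and 78.7, 70.2 and 72.0 CPM in STM2457 there, without overlap, and fell by 0.44 (log2, SE 0.10, n = 3, edgeR adjusted p = 0.00144). In NGP its values of 117, 72.6 and 77.4 CPM in DMSO and 72.9, 79.8 and 73.6 CPM in STM2457 overlapped, with a change of -0.23 (edgeR adjusted p = 0.316). The test of the difference did not call WDR74 with all libraries and did without the first DMSO replicate of NGP (-0.46, edgeR adjusted p = 0.00863). STX5-DT on the other strand shares 12.2% of its exon length.

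GNL2 and GNL3 are nucleolar GTPases, and GNL2 takes part in the export of the large subunit. In SK-N-BE2, GNL2 had 99.4, 101 and 98.7 CPM in DMSO and 95.2, 110 and 108 CPM in STM2457. Its NGP values were 148, 148 and 136 CPM in DMSO and 111, 104 and 104 CPM in STM2457. The groups overlapped in SK-N-BE2 and were apart in NGP. GNL2 gave 0.03 ± 0.08 in SK-N-BE2 and fell by 0.44 in NGP (log2, SE 0.09, n = 3, edgeR adjusted p = 0.00510). GNL3 gave -0.05 and 0.19 and was not called, but rose in NGP without the first DMSO replicate (0.29, edgeR adjusted p = 0.00219).

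RRP1B, a nucleolar processing factor, had 175, 168 and 160 CPM in DMSO and 201, 195 and 187 CPM in STM2457 in SK-N-BE2. NGP had 176, 222 and 220 CPM in DMSO and 285, 300 and 305 CPM in STM2457. Treated libraries were above controls in both lines, and the NGP rise was 0.53 ± 0.11 (log2, SE, n = 3, edgeR adjusted p = 0.00607), while 0.18 in SK-N-BE2 was not called (edgeR adjusted p = 0.0700). NOP2, an rRNA cytosine methyltransferase, had 1.31, 1.62 and 1.29 CPM in DMSO and 2.22, 3.01 and 2.09 CPM in STM2457 in NGP, without overlap, a rise of 0.80 ± 0.24 (log2, SE, n = 3, edgeR adjusted p = 0.0286). In SK-N-BE2 its values were 1.88, 1.14 and 2.28 CPM and 1.76, 1.55 and 2.15 CPM. These counts are an uncertain measure of NOP2: 54.4% of its exon length is shared with AC006064.6 on the same strand, which held 0 reads in all 12 libraries, and reads in the shared part are ambiguous in this kind of counting. The NOP2 call was lost without the third DMSO replicate or the first or second STM2457 replicate of NGP (edgeR adjusted p up to 0.0911).

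PES1, BOP1 and WDR12 form the PeBoW complex of large-subunit processing. Of these, WDR12 was called, higher by 0.21 ± 0.08 in SK-N-BE2 (log2, SE, n = 3, edgeR adjusted p = 0.0397). That call was lost in 4 of 6 fits without 1 library, those without the third DMSO replicate or any one STM2457 replicate (up to 0.153). It was also lost under upper-quartile scaling (0.0985) and with a replicate block (0.0610). BOP1 gave -0.09 in SK-N-BE2 and -0.52 ± 0.19 in NGP (edgeR adjusted p = 0.0617), where its controls spread from 182 to 315 CPM and the call was gained without the second DMSO replicate (-0.69, edgeR adjusted p = 0.0121), in the joint fit (0.0231) and by DESeq2 (0.0361). PES1 gave 0.06 and -0.21. MRTO4, a placeholder protein of the large-subunit stalk, fell in NGP by 0.40 (edgeR adjusted p = 0.0338), against -0.03 in SK-N-BE2. Leaving out the first DMSO replicate gave -0.26 for MRTO4 in NGP (edgeR adjusted p = 0.00804). The MRTO4 call was lost without the third DMSO replicate or any one STM2457 replicate (edgeR adjusted p up to 0.118) and with a replicate block (0.0586).

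The remaining large-subunit genes NOP16, RRS1, PPAN and EBNA1BP2 were not called in either line, SK-N-BE2 giving log2 changes of -0.16 to 0.15 and NGP -0.24 to 0.35. EBNA1BP2 was called higher in NGP without the first DMSO replicate (0.54, edgeR adjusted p = 0.000162) and in the joint fit (0.0229), and NOP16 without that replicate (0.21, edgeR adjusted p = 0.0401). PPAN shares 49.2% of its exon length with the read-through gene PPAN-P2RY11 and with P2RY11. In all, 13 of the 39 genes share over 10% of their exon length with another gene, and among the 26 that do not, 8 were called in SK-N-BE2 (5 higher, 3 lower) and 12 in NGP (6 higher, 6 lower).

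Nucleolin (NCL) and nucleophosmin (NPM1) are the abundant RNA-binding and chaperone proteins of the nucleolus, and they differed from each other. NCL had 1436, 1509 and 1368 CPM in DMSO and 1674, 1794 and 1764 CPM in STM2457 in SK-N-BE2. NGP had 1098, 865 and 880 CPM in DMSO and 1366, 1394 and 1392 CPM in STM2457. Treated libraries were above the controls in both lines, and NCL rose by 0.24 ± 0.09 and 0.55 ± 0.11 (log2, SE, n = 3, edgeR adjusted p = 0.0381 and 0.00561). Its SK-N-BE2 call was lost without the third DMSO replicate or any one STM2457 replicate (edgeR adjusted p up to 0.145). It was also lost under upper-quartile scaling (0.0782) and with a replicate block (0.0680).

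NPM1 had 1700, 1720 and 1709 CPM in DMSO and 1352, 1477 and 1430 CPM in STM2457 in SK-N-BE2. In NGP it had 1503, 1131 and 1326 CPM in DMSO and 1759, 1728 and 1749 CPM in STM2457. The treated libraries were below all controls in SK-N-BE2 and above all controls in NGP. NPM1 fell by 0.30 in SK-N-BE2 (log2, SE 0.09, n = 3, edgeR adjusted p = 0.0109) and rose by 0.41 ± 0.12 in NGP (edgeR adjusted p = 0.0237). The line calls of NPM1 were lost without the first STM2457 replicate of SK-N-BE2 (edgeR adjusted p = 0.0752), and without the third DMSO replicate or any one STM2457 replicate of NGP (up to 0.0891). GENCODE 44 lists 49 pseudogenes named after NPM1, and reads that map to several places were not counted, so its level is uncertain.

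MYBBP1A, a nucleolar protein that binds transcription factors and takes part in rRNA processing, had 70.1, 67.6 and 78.0 CPM in DMSO and 94.5, 95.3 and 91.6 CPM in STM2457 in SK-N-BE2. The groups did not overlap, and it rose by 0.35 ± 0.08 (log2, SE, n = 3, edgeR adjusted p = 0.00276). In NGP it had 206, 178 and 183 CPM and 195, 224 and 189 CPM, which overlap. PA2G4, a growth-regulating nucleolar protein, gave 0.15 and -0.11 and was called in neither line.

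Called in both lines in the same direction were 6 genes: FTSJ3, NCL, UTP20 and NOP14 higher, 4 of 39 where 10.5% of the 12952 genes tested in both lines were, and NIP7 and NOB1 lower, 2 of 39 where 10.8% of genes were. Under upper-quartile scaling the split was 2 higher and 4 lower. NPM1 alone was called in opposite directions (background 4.96%). Another 16 genes were called in 1 line, as were 5748 of the 12952 genes tested in both lines, and 16 in neither (background 29.3%). The sign of the log2 fold change was the same in both lines for 24 of 39 genes (61.5%, against 64.7% of all genes).

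**Figure D4:**
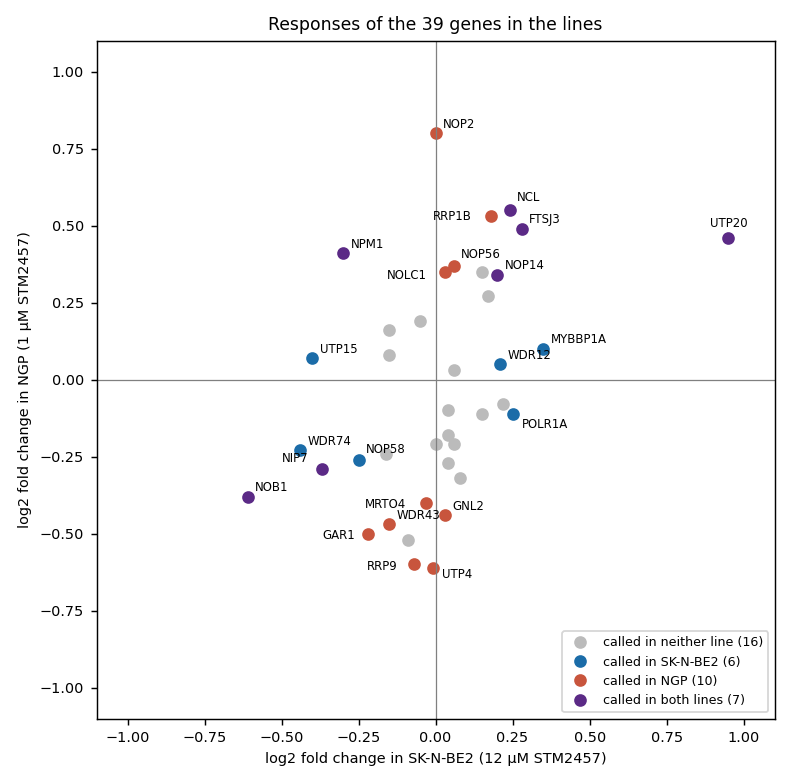
Log2 fold change with STM2457 in SK-N-BE2 (x axis) against NGP (y axis), 1 point per gene, colored by the line in which the gene was called. The 7 genes called in both lines include NPM1 in the upper left, and 10 genes were called in NGP alone against 6 in SK-N-BE2 alone. Of all genes tested in a line, 41.7% were called in NGP and 54.7% in SK-N-BE2.

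The response was compared between the lines with 1 test over all 12 libraries, SK-N-BE2 minus NGP. It called 5 of the 39 genes (12.8%, against 30.9% of 14731 genes, 17.0% positive and 13.9% negative). An unadjusted edgeR p under 0.05 was found for 11 of the 39 genes and for 6133 of the 14731. UTP4, GNL2 and RRP9 were positive, since they fell in NGP and not in SK-N-BE2. The differences were 0.62 ± 0.11 for UTP4, 0.48 ± 0.11 for GNL2 and 0.55 ± 0.18 for RRP9 (log2, SE, edgeR adjusted p = 0.000921, 0.00544 and 0.0367). NPM1 and UTP15 were negative, at -0.70 ± 0.14 and -0.46 ± 0.14 (edgeR adjusted p = 0.00211 and 0.0201). The RRP9 difference was 0.33 without the first DMSO replicate of NGP (edgeR adjusted p = 0.0296). It was lost in 8 of 12 fits without 1 library, those without any SK-N-BE2 library or without the first or the third STM2457 replicate of NGP (edgeR adjusted p up to 0.0898). Upper-quartile scaling (0.0611) and a replicate block (0.0791) lost it too. That of UTP15 was lost without the first STM2457 replicate of SK-N-BE2 or the third of NGP (up to 0.0551). With upper-quartile scaling 2 genes were positive and 4 negative, the latter with NOLC1 and RRP1B (edgeR adjusted p = 0.0284 for both), which DESeq2 also called (0.0246 and 0.0376).

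Without the first DMSO replicate of NGP the test of the difference called 19 of the 39 genes, 7 positive and 12 negative (48.7%, against 42.0% of all genes in that fit), among them all 5 named above. The other 14 were POLR1A, POLR1B, UTP20 and WDR43 on the positive side and NOP56, NHP2, NOLC1, NOB1, RRP1B, WDR74, GNL3, FTSJ3, EBNA1BP2 and NCL on the negative side, with edgeR adjusted p from 0.000690 (UTP20) to 0.0474 (RRP1B). The test called 3 genes without the first STM2457 replicate of SK-N-BE2 and 3 without the third STM2457 replicate of NGP, where 24.8% and 25.7% of all genes were called. The dose and the folder taken as the sequencing run also differed between the lines, and their part in these differences cannot be told apart from that of the line.

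In cells kept in DMSO the genes spanned a wide range of levels. Per kilobase of exon, NPM1 was at 447 CPM in SK-N-BE2 and 345 CPM in NGP, and NCL at 211 and 139 CPM. FBL stood at 85.8 and 250 CPM per kilobase, and UTP20 at 3.27 and 8.17. NOP2 was lowest at 0.377 and 0.300, with the loss of reads named above. Levels of the DMSO libraries did not overlap between the lines for 26 of the 39 genes, 20 higher in NGP (against 33.8% of genes) and 6 higher in SK-N-BE2 (against 35.0%; 68.9% of all genes did not overlap in either direction). MYBBP1A was 11.6 and 30.5 CPM per kilobase in SK-N-BE2 and NGP, and NOP14 24.9 and 13.6. The folder taken as the sequencing run also differed between the lines, and the part of the run in this cannot be told apart from that of the line.

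**Figure D5:**
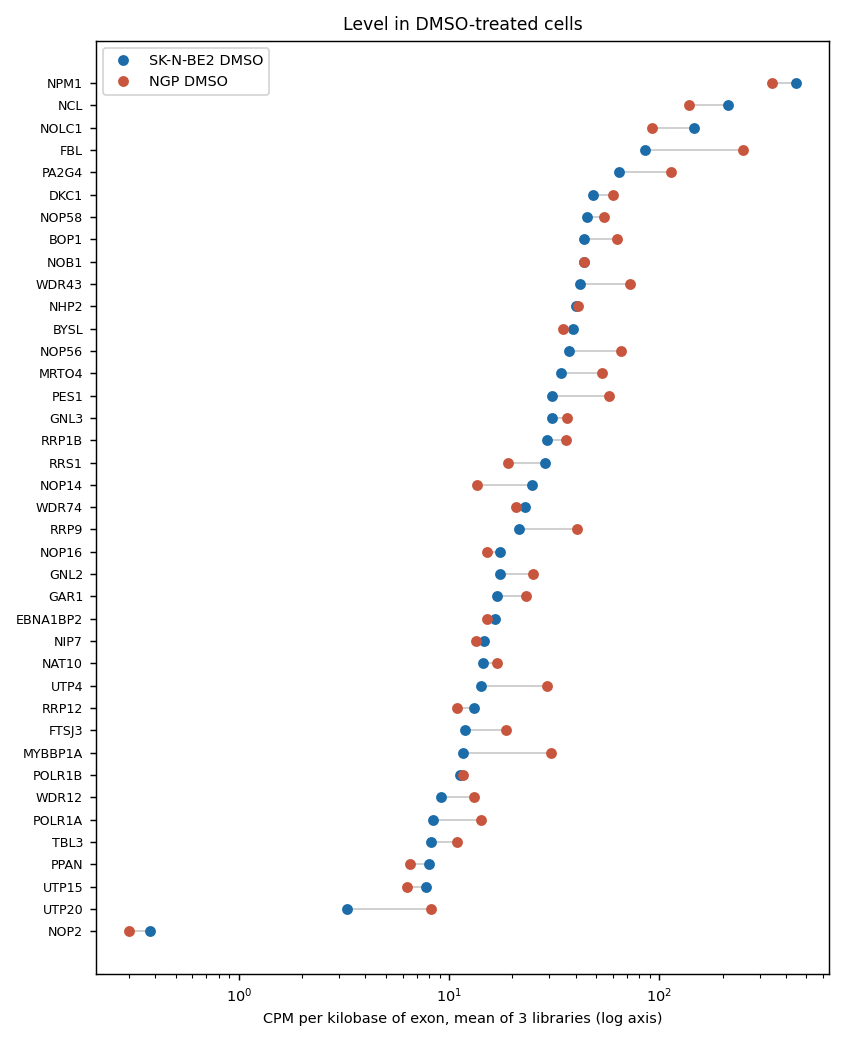
Mean level of each of the 39 genes in the DMSO libraries, in CPM per kilobase of exon (x axis, log scale), with 3 libraries per line. NPM1 and NCL lead in SK-N-BE2, FBL exceeds NCL in NGP at 250 against 139, and NOP2 is lowest in both lines.

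The 39 genes together took 0.703 ± 0.0116% of all counted reads in the DMSO libraries of SK-N-BE2 and 0.732 ± 0.0191% with STM2457 (mean ± SD, n = 3). In NGP they took 0.783 ± 0.0498% and 0.838 ± 0.00770%. NCL and NPM1 made up 43.7% to 44.0% of these reads in SK-N-BE2 with DMSO and 42.1% to 43.5% with STM2457. In NGP they made up 28.3% to 30.4% and 37.2% to 37.7%. Without NCL and NPM1 the other 37 genes took 0.391%, 0.402% and 0.391% of reads in DMSO and 0.414%, 0.426% and 0.414% in STM2457 in SK-N-BE2. In NGP they took 0.585%, 0.534% and 0.537% in DMSO and 0.517%, 0.528% and 0.526% in STM2457. With all 39 genes counted, the first DMSO replicate of NGP (0.839%) lay within the range of its STM2457 libraries (0.829% to 0.843%) and the other controls below it (0.745% and 0.766%). On the TMM effective library size the 37 genes took 0.596%, 0.505% and 0.518% in DMSO and 0.517%, 0.527% and 0.521% in STM2457 in NGP. The NGP groups thus overlapped on this scale, while as a share of all counted reads every STM2457 library lay below the controls.

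The transcription factors that these genes are known to follow were measured in the same libraries. MYCN had 4428, 4147 and 4794 CPM in DMSO and 4252, 4308 and 4292 CPM in STM2457 in SK-N-BE2. In NGP it had 3832, 3818 and 4316 CPM and 3804, 4423 and 3725 CPM. Groups overlapped in both lines, and the changes were -0.09 ± 0.10 and 0.00 ± 0.11 (log2, SE, n = 3, edgeR adjusted p = 0.453 and 0.995), with 95% intervals of -0.31 to 0.12 and -0.25 to 0.25. MYC had far fewer reads. It had 2.64, 2.09 and 2.91 CPM in DMSO and 1.67, 0.706 and 0.882 CPM in STM2457 in SK-N-BE2 and fell there by 1.26 (log2, SE 0.31, n = 3, edgeR adjusted p = 0.00326), while no NGP library passed 0.504 CPM. The NGP change of MYC was 0.24 (edgeR adjusted p = 0.762). The difference between the lines, -1.50, was not called (edgeR adjusted p = 0.101). It was called without the first STM2457 replicate of SK-N-BE2 or that of NGP (edgeR adjusted p = 0.0434 and 0.0418).

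Outside the 39 genes, 132 other genes of ribosome biogenesis were taken from a list of pathway members. In SK-N-BE2, 59 of them were called, 35 higher and 24 lower (44.7%, against 54.7% of all genes), and in NGP 40, 15 higher and 25 lower (30.3%, against 41.7%), with medians of 0.02 and -0.05. The SK-N-BE2 split was 31 higher and 32 lower under upper-quartile scaling. The NGP count was 83 without the first DMSO replicate, 25 without the first STM2457 replicate and 23 without the third, where 57.3%, 27.7% and 28.4% of all genes were called. The difference between lines was called for 32, 25 positive and 7 negative (24.2%, against 30.9%), which was 21 and 11 under upper-quartile scaling and 34 and 15 without the first DMSO replicate of NGP (42.0% of all genes called).

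Over all genes, 26.9% were called higher and 27.8% lower in SK-N-BE2, against 19.4% and 22.2% in NGP. By group, the 14 other genes of the RNA polymerase I machinery had 3 higher and 1 lower in each line. The 41 other small-subunit factors had 11 higher and 5 lower in SK-N-BE2, and 4 higher and 4 lower in NGP. The 46 other large-subunit factors had 12 higher and 10 lower, and 3 and 10. The 17 other genes of snoRNP assembly and rRNA modification had 3 higher and 5 lower, and 2 and 6. The 14 genes of the RNA exosome, which trims rRNA precursors, had 6 higher and 3 lower, and 3 and 4.

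Of the 132 genes, 10 were called higher and 13 lower in both lines (10.5% and 10.8% of all genes). Opposite directions were called for 3 (4.96% of all genes). The sign was the same in both lines for 57.6% of the 132 genes, against 64.7% of all genes. Several of the largest called changes, named for their size, had the same direction in both lines. DDX54, a nucleolar RNA helicase, rose by 0.70 ± 0.09 in SK-N-BE2 and 0.73 ± 0.14 in NGP (log2, SE, n = 3, edgeR adjusted p = 1.96e-05 and 0.00426). NOP53, which brings the exosome to the large-subunit precursor, fell by 0.98 and 1.07 (SE 0.17 and 0.27, edgeR adjusted p = 0.000336 and 0.0128). Without the first STM2457 replicate of NGP, NOP53 was not called there (edgeR adjusted p = 0.0562). RSL24D1, a placeholder protein of the large subunit, fell by 0.93 and 0.72 (edgeR adjusted p = 6.93e-06 and 0.00106). The exosome subunit EXOSC8 fell by 0.70 and 0.64 (edgeR adjusted p = 1.90e-05 and 0.00408), EXOSC5 by 0.51 and 0.76 (edgeR adjusted p = 0.000550 and 0.00560), and the exosome-associated MPHOSPH6 rose by 0.58 and 0.90 (edgeR adjusted p = 0.000604 and 0.000482).

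MDN1, the giant ATPase that remodels large-subunit particles, rose by 0.83 ± 0.13 in SK-N-BE2 (log2, SE, n = 3, edgeR adjusted p = 0.000142), against 0.33 in NGP (edgeR adjusted p = 0.131), where it was called without the second DMSO replicate (0.50, edgeR adjusted p = 0.0244). The MDN1 difference of 0.51 was not called (edgeR adjusted p = 0.117). It was called without the first DMSO replicate of SK-N-BE2 or that of NGP (edgeR adjusted p = 0.0403 and 0.0166). EIF6, which keeps the large subunit from joining too early, fell by 0.94 in NGP (edgeR adjusted p = 0.00205), against -0.22 in SK-N-BE2 (edgeR adjusted p = 0.0546, and 0.0225 without the first DMSO replicate), and the difference was called (edgeR adjusted p = 0.0102). NOP9 rose by 0.71 in SK-N-BE2 and 0.52 in NGP (edgeR adjusted p = 5.33e-05 and 0.00267). DDX47 rose by 1.09 in NGP (edgeR adjusted p = 0.00974) from a level near 1 CPM. EIF6, NOP9 and DDX47 share over 10% of their exon length with other genes and are uncertain.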

How the data were processed

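The labels' protocols describe poly(A) selection of RNA and cDNA library construction with a SMART kit. Per the submitters' processing notes, FastQC 0.11.5, Trimmomatic 0.36, HISAT2 2.1.0 and featureCounts (Subread 1.5.3) were used with GRCh38. The authors deposited raw read counts per gene, as integers, which the file headers attribute to featureCounts 2.0.5 and exons of protein-coding genes in GENCODE 33. Per the file headers, both mates of a pair could be counted, strand was ignored and reads with several mappings were left out.

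The counts of each line (6 libraries) were fitted with edgeR 4.0.16 in R 4.3.3, using filterByExpr (minimum count 10), TMM scaling and the quasi-likelihood test, adjusted by Benjamini-Hochberg over all genes tested at 0.05. The difference between lines was a contrast of 4 group means over 12 libraries. CPM values use TMM factors of all libraries, so changes are relative to the whole library, and fewer cells and less RNA per cell cannot be told apart. A standard error is the size of the log2 change divided by the root of F. Genes sharing over 10% of exon length with another gene, in the deposited annotation or on the other strand in GENCODE 44, are treated as uncertain.

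The members, their roles and the lists were chosen with earlier results of these data known. Values in every library are given for the 4 largest called rises and falls per line, for genes called in both lines in the same direction, and for up to 3 called differences in each direction; of the 132 other genes, 3 of them found under older symbols, up to 3 per line and direction are named. Alternatives were DESeq2 1.42.0, other scaling factors (DESeq2 size factors, upper quartile), no filter, a replicate block, counts halved and rounded up, a joint fit of all libraries and leaving out each library. The fit was tested on simulated counts with 200 genes set to a log2 change of 1. It recovered 89.4% in SK-N-BE2 (13903 genes), 78.3% in NGP (13484) and 63.5% of differences (14526). In the same order, 6.81%, 5.49% and 5.93% of calls were false. In the data the changes of the listed genes were smaller (median absolute log2 change 0.15 in SK-N-BE2 and 0.29 in NGP). Far more genes were called there (54.7% and 41.7% of all genes tested). Recovery and false calls under such conditions were not tested. One marker gene is not reported here.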

Additional observations from a re-analysis of the deposited data

Results flagged for a closer look

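For 5 of the 39 genes the responses of the lines differed by the test of the difference itself (edgeR, SK-N-BE2 minus NGP, log2). UTP4 differed by 0.62, GNL2 by 0.48 and RRP9 by 0.55, and each of these fell in NGP without a call in the other line. NPM1 differed by -0.70, falling in SK-N-BE2 and rising in NGP. UTP15 differed by -0.46, falling in SK-N-BE2 and not called in NGP. UTP4, GNL2 and NPM1 were called in each of the 12 fits without 1 library and under the 6 other settings tried, while RRP9 and UTP15 were not called in some of them.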

How the results depend on the processing

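No called result changed sign under the alternatives run, while the medians over the 39 genes, which have no test, lay near 0 and crossed it in some fits (-0.17 to 0.01 in NGP without 1 library). The number of the 39 genes called ran from 10 to 13 in SK-N-BE2, 12 to 21 in NGP and 4 to 7 for the difference over the settings other than leaving out a library. The counts over all genes moved too, from 6572 to 7752, from 5026 to 6782 and from 4025 to 5270. Leaving out 1 library gave 7 to 16 of the 39 genes in SK-N-BE2, 5 to 24 in NGP and 3 to 19 for the difference, with medians of the difference from -0.05 to 0.18. In the same fits 6497 to 7849, 3816 to 7897 and 3701 to 6274 of all genes were called. The other ribosome biogenesis genes gave 23 to 83 in NGP and 26 to 49 for the difference. Genes called in both lines in the same direction gave 2 to 8, the 2 without the third DMSO replicate or any one STM2457 replicate of NGP. The median of the 39 genes in SK-N-BE2 was -0.02 under upper-quartile factors and 0.07 in the joint fit, against 0.03, and their share of reads in SK-N-BE2 DMSO was 0.718% of the effective library size; the cause was not tested.

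With the replicate block, 10 genes were called in SK-N-BE2 (4 higher, 6 lower), 12 in NGP, 4 for the difference and 2 in both lines. Over all genes, the settings that include this block called 6572 to 7752 in SK-N-BE2, 5026 to 6782 in NGP and 4025 to 5270 for the difference. The main fits called 7665, 5671 and 4549 of all genes. Same-numbered DMSO and STM2457 libraries did not deviate together (correlations from -0.09 to 0.06), so the numbers are not taken as pairs. Calls kept in every fit were 7 of 13 in SK-N-BE2 (UTP15, UTP20, NOB1, WDR74, NIP7, FTSJ3, MYBBP1A), 5 of 17 in NGP (UTP4, RRP1B, GNL2, FTSJ3, NCL) and 3 of 5 differences (UTP4, GNL2, NPM1). NOP2 had the fewest reads, at 1.14 to 3.01 CPM, and its SE of 0.28 in SK-N-BE2 was the widest of the list there.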

Other observations

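The rRNA methyltransferase genes METTL5 and ZCCHC4, which write N6-methyladenosine on rRNA and were picked here after their values were seen, were called in different lines. METTL5 had 51.8, 40.6 and 39.5 CPM in DMSO and 27.7, 27.8 and 28.4 CPM in STM2457 in NGP, all treated libraries below the controls. It fell there by 0.65 (log2, n = 3, edgeR adjusted p = 0.00436), and the highest control was the first replicate. In SK-N-BE2, METTL5 had 30.7, 33.3 and 33.6 CPM in DMSO and 28.2, 29.9 and 28.7 CPM in STM2457, also without overlap. Its change of -0.20 there was not called (edgeR adjusted p = 0.0656). METTL5 shares over 10% of its exon length with another gene. ZCCHC4 had 14.7, 14.5 and 14.1 CPM in DMSO and 10.0, 10.6 and 11.4 CPM in STM2457 in SK-N-BE2, also without overlap. It fell there by 0.47 (log2, n = 3, edgeR adjusted p = 0.00188), against 0.15 in NGP. The test of the difference called both (edgeR adjusted p = 0.0342 and 0.0117).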
